A study of Mus musculus with 15 samples.

Results

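The genes described here are the nuclear genes for the respiratory chain and ATP synthase of the mitochondrion. They were chosen by symbol and by measured level. A symbol had to start with Nduf, Uqcr or Atp5, or with Cox followed by a digit from 4 to 8, and the gene had to reach an FPKM (read number scaled to the length of the transcript and the size of the library) of 1 in at least 3 of the 15 libraries. Of 17030 genes in the table, 88 had such a symbol and 84 also passed the level. By name, these were 38 subunits of complex I, 8 subunits of complex III, 13 subunits of complex IV, 17 subunits of ATP synthase and 8 assembly factors of complex I. The assembly factors, whose symbols start with Ndufaf, help to build complex I and are not part of the finished enzyme. By name, the description as subunits thus holds for 76 of the 84 genes. These classes follow the symbols alone. Cox7a2l, a factor that links complexes III and IV, is counted with complex IV. Ndufa4, now counted as a subunit of complex IV, is placed with complex I. The level used in the choice was that of single libraries in any group, with no contrast between groups.

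Of the 84 genes, 82 reached an FPKM of 1 in all 15 libraries. The gene just inside the threshold was Cox6a2, the striated-muscle isoform of a complex IV subunit, which reached it in 9 libraries, namely those of the control-CAR, Hoxb8 macrophage and BMDM groups. Since Cox6a2 passed only through those groups, its lower level in the CAR and progenitor groups was in part set by the choice. Ndufaf4 reached the threshold in 10 libraries, namely all those of the CAR, BMDM and progenitor groups and 1 control-CAR library. Its lower level in the control-CAR and Hoxb8 macrophage groups was likewise in part set by the choice. Just outside stood Cox6b2, known as a testis isoform, with FPKM of 1.59, 1.18 and 0.89 in the BMDM libraries and at most 0.36 in the others. Cox4i2, the isoform known from lung, stayed at or under 0.65 FPKM in every library, Ndufa4l2 at or under 0.41 and Ndufb4b at or under 0.98.

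The study sequenced polyadenylated RNA of mouse bone marrow cells in 5 groups of 3 libraries. The CAR macrophages are labelled with the genotype CAR expression and as CAR treated, and the control-CAR macrophages with Control-CAR expression and as Control-CAR treated. A CAR is a chimeric antigen receptor, a designed surface receptor that directs an immune cell to an antigen. Hoxb8 macrophages, BMDM (macrophages from bone marrow) and progenitors are all labelled WT and untreated. Hoxb8 is a homeobox factor commonly used to hold myeloid progenitors in a dividing state in culture, and all 5 groups carry the labels primary cell and Bone Marrow. The labels give no antigen for the CAR, no vector, no age of the animals and do not say whether replicate libraries are separate cultures or animals, so p-values measure only the spread between these libraries.

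Library totals were 16962839 to 19221681 estimated counts. Hoxb8 macrophage replicate 2 and BMDM replicate 3 stood apart in the lengths that FPKM divides by, as implied by their values. The total counts of calls among the 84 genes are also given without these 2 libraries. The macrophage list of 7 genes (Adgre1, Csf1r, Lyz2, Cd68, Itgam, Mertk and Fcgr1) summed to 2444 to 2509 FPKM in CAR libraries, with 6 of the 7 at a mean of 1 or more. It summed to 7175 to 7779 FPKM in control-CAR, 7449 to 8163 in Hoxb8 macrophage, 9640 to 10575 in BMDM and 186 to 204 in progenitor libraries, where Mertk was at 0. The 7 genes of myeloid progenitors summed to 155 to 169 FPKM in CAR, 8.64 to 10.6 in control-CAR, 8.21 to 10.1 in Hoxb8 macrophage, 114 to 192 in BMDM and 2656 to 2685 in progenitor libraries. Genes known from mast cells and basophils (8 genes, all at a mean FPKM of 1 or more in CAR macrophages) summed to 3647 to 3871 FPKM in CAR, 421 to 472 in control-CAR, 419 to 430.02 in Hoxb8 macrophage, 302 to 321 in BMDM and 1630 to 1750 in progenitor libraries. Of this list, Cma1, Fcer1a and Tpsb2 were at 0 in progenitor libraries and Cma1 was at 0 in Hoxb8 macrophage libraries. A list of 6 genes of dividing cells summed to 257 to 263 FPKM in CAR, 11.4 to 13.3 in control-CAR, 10.4 to 13.7 in Hoxb8 macrophage, 127 to 163 in BMDM and 778 to 792 in progenitor libraries. The 7 neutrophil genes summed to 193 to 227 FPKM in CAR, 1703 to 2087 in control-CAR, 1228 to 1471 in Hoxb8 macrophage, 4780 to 11225 in BMDM and 13.9 to 14.9 in progenitor libraries, where S100a8, S100a9, Ltf, Camp and Ngp were at 0. The 5 erythroid genes summed to 63.1 to 74.3 FPKM in CAR and 5.86 to 6.49 in BMDM libraries, with 2 of the 5 at a mean of 1 or more in both groups. They summed to 1.51 to 3.25 in control-CAR, 1.05 to 1.77 in Hoxb8 macrophage and 0.83 to 1.85 in progenitor libraries. For the 6 fibroblast genes the sums were 45.8 to 47.1 FPKM in CAR and 14.96 to 17.25 in BMDM libraries. These were 0.85 to 1.26 in control-CAR, 0.51 to 1.21 in Hoxb8 macrophage and 1.49 to 1.75 in progenitor libraries. The 4 B cell genes summed to 28.2 to 51.8 FPKM in BMDM libraries and to at most 0.37 in any other library. The part of these cell type and division differences in the results below was not tested. In bulk RNA, fewer cells of a type and less RNA per cell cannot be told apart.

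Complex I takes electrons from NADH, complex III passes them from ubiquinol to cytochrome c, complex IV hands them to oxygen, and ATP synthase uses the resulting proton gradient to make ATP. Most of their subunits are encoded in the nucleus and imported, while a few core membrane subunits are made inside the mitochondrion, so each complex is built from both genomes with the help of assembly factors. Macrophages are known to vary the balance between glycolysis and respiration with their state of activation, and several complex IV subunits exist as isoforms used in different tissues. The subunits encoded in the mitochondrion were not analysed here.

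As a share of all counts, the 84 genes together made up 0.604% ± 0.0054 in CAR, 0.493% ± 0.010 in control-CAR, 0.516% ± 0.022 in Hoxb8 macrophage, 0.548% ± 0.033 in BMDM and 1.01% ± 0.032 in progenitor libraries (SD, n = 3 each). The progenitor libraries were above all others and the CAR libraries (0.598% to 0.609%) were above every other macrophage library, whose highest value was 0.585%. ATP synthase genes held 0.269% ± 0.0018 of counts in CAR libraries and 0.189% ± 0.0028 in control-CAR libraries, and complex I subunits held 0.148% ± 0.0013 in CAR and 0.125% ± 0.0033 in control-CAR libraries. Complex IV genes as classed by name differed less, with 0.131% ± 0.0018 in CAR, 0.128% ± 0.0037 in control-CAR and 0.157% ± 0.0056 in progenitor libraries. This class includes Cox7a2l and leaves out Ndufa4. The mean FPKM was highest in progenitors for 71 of the 84 genes, in Hoxb8 macrophages for 7, in CAR macrophages for 3 and in BMDM for 3. The highest group mean was at least 2-fold the lowest for 48 genes and at least 4-fold for 10. The shares over all tested genes are not given for these counts. The median FPKM of all 11793 tested genes was also highest in progenitors. It was 14.2 there, 11.5 in CAR, 8.58 in control-CAR, 8.24 in Hoxb8 macrophage and 9.88 in BMDM libraries. A highest mean in progenitors is thus not particular to the 84 genes.

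**Figure D1:**
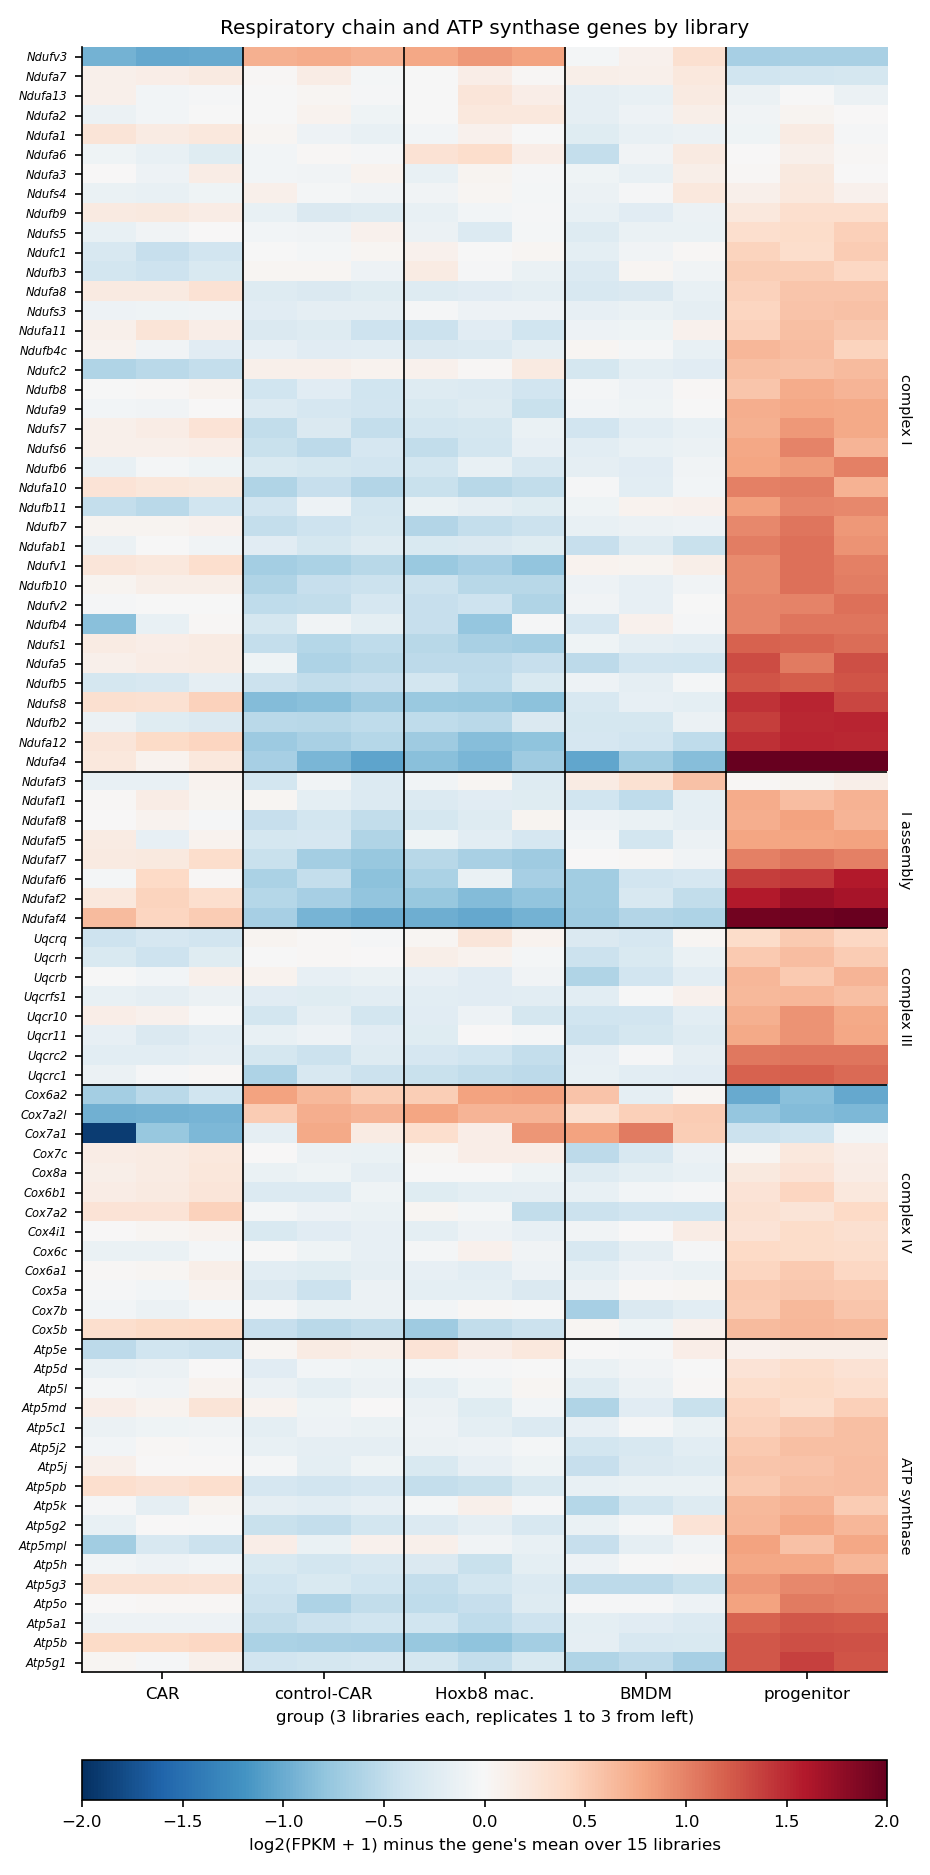
Each row is 1 of 83 of the 84 genes, grouped by complex, and each column 1 of the 15 libraries; colour gives log2(FPKM + 1) minus the mean of that gene over the libraries, with red above and blue below and the scale cut off at 2 on either side. Progenitor libraries are red for most rows, and Ndufv3, Cox6a2, Cox7a2l and Cox7a1 run the other way, with low values in both CAR and progenitor libraries. The median FPKM of all tested genes was also highest in progenitors.

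FPKM and counts per library total both rest on the library total, which a few very abundant transcripts can fill. The scaling by TMM (edgeR's trimmed mean of M values, which takes most genes as unaltered) gave factors of 1.05 for CAR, 0.825 to 0.877 for control-CAR, 0.824 to 0.829 for Hoxb8 macrophage, 0.896 to 0.961 for BMDM and 1.46 to 1.47 for progenitor libraries. On the TMM-scaled counts, progenitors had the highest mean for 40 of the 84 genes, Hoxb8 macrophages for 31, CAR macrophages for 6, BMDM for 6 and control-CAR macrophages for 1. The direction of many small differences therefore depended on the scaling. These counts by highest group are likewise given without the share over all tested genes. Calls below are from edgeR's quasi-likelihood test on TMM-scaled counts (Benjamini-Hochberg adjusted p under 0.05 over 11793 genes). The text says which of them held in all 6 scalings run (TMM, DESeq2's size factors, library totals, FPKM, TPM and quantile-normalised FPKM). DESeq2 used its own test, and FPKM, TPM and quantile-normalised FPKM were tested with limma on log2 of the value plus 1. The 6 thus differ in more than scaling, and a low gene can lose its call through the added 1. They also do not test both directions equally. With library totals, FPKM and TPM the median of all tested genes moved up for CAR against control-CAR macrophages. It moved down for both comparisons against progenitors and for Hoxb8 macrophages against BMDM. Calls in the direction of the move were kept more readily, and the share kept over all tested genes is not given.

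Of the genes with the largest changes, 4 are shown with the 250 bases before their start sites, because 2 of them were high in progenitors and 2 were low. In RefSeq coordinates of GRCm38.p6, Ndufaf4 (an assembly factor of the complex I peripheral arm) lies at chr4:24898083-24905001, Ndufa4 (named for complex I and now counted as a subunit of complex IV) at chr6:11900372-11907450, Cox7a2l (a factor that links complexes III and IV in supercomplexes) at chr17:83501917-83514333 and Ndufv3 (an accessory subunit of the NADH-binding module) at chr17:31520115-31531326. Ndufaf4 and Ndufa4 were the ones high in progenitors. The windows are chr4:24897833-24898082 (plus strand), chr6:11907451-11907700 (minus strand), chr17:83514334-83514583 (minus strand) and chr17:31519865-31520114 (plus strand), written 5′ to 3′ on the strand of the gene, with matches to a searched motif in capitals.
Ndufaf4: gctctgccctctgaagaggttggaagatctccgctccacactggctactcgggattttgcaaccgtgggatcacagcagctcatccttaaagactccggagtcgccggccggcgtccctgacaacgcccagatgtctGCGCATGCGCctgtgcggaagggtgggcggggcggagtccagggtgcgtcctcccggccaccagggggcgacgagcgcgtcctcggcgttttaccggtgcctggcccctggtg
Ndufa4: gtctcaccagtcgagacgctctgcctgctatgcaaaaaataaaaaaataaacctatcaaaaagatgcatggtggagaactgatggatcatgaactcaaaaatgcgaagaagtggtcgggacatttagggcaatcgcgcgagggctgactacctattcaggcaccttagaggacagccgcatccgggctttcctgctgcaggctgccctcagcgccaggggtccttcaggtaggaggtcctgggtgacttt
Cox7a2l: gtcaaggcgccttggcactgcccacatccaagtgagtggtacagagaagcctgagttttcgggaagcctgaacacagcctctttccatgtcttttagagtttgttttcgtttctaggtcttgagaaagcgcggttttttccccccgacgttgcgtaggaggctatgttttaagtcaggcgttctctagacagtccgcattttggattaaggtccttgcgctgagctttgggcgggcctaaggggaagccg
Ndufv3: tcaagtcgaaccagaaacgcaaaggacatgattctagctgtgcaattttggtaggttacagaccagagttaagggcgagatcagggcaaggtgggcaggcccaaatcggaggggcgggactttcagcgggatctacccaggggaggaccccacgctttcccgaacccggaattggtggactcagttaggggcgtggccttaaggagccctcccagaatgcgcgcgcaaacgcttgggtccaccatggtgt
The letters searched on both strands were GCGCATGC (NRF1), CCGGAAG (an ETS site as bound by GABP) and AAGATGG (YY1), factors known to bind promoters of respiratory genes. Ndufaf4 held the NRF1 letters on both strands, overlapping, 113 and 111 bases before its start, and the other 3 windows held none of the motifs. Among the 70 of the 84 genes with a window, 8 held the NRF1 letters (11.4%), against 482 of 9535 tested genes with a window (5.06%). The NRF1 letters were in 1 of the 31 windows of genes called lower in Hoxb8 macrophages against progenitors (3.23%) and in 4 of the 28 windows of genes called higher (14.3%). The ETS letters were in 13 (18.6%), against 16.1% of tested genes, and the YY1 letters in 1 (1.43%), against 5.26%. A match describes the letters in this window and does not show binding, and the absence of a match says only that these letters are not there.

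The first comparison asks what expression of the CAR went with, beyond the control construct. In CAR macrophages, assembly factors Ndufaf4 and Ndufaf2, complex I core subunits Ndufs8, Ndufv1 and Ndufs1, Ndufa4 and ATP synthase subunit Atp5b were higher. The complex I core did not rise as a whole, since its subunit Ndufs3 was called lower with TMM. Cox7a2l, Ndufv3 and the muscle-type isoform Cox7a1 were lower. Of the assembly factors 4 of 8 (50%) were called higher and 0 lower, with a median log2 change of 0.48, against 0.064 over all tested genes. Complex I subunits had 13 of 38 higher and 12 lower, ATP synthase 4 of 17 higher and 4 lower, and complex IV 1 of 13 higher and 5 lower. Of all 84 genes 22 were called higher (26.2%) and 27 lower (32.1%), where 41.9% of all tested genes were called higher and 36.8% lower. Both shares of the 84 genes were under the background, and that of the assembly factors was near it for higher calls. The median log2 change of the 84 genes was -0.022. With library totals in place of TMM, 53 were called higher and 11 lower, and the median of all tested genes moved by 0.31.

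Ndufaf4 had an FPKM of 4.14, 3.49 and 3.71 in CAR macrophages, against 1.09, 0.75 and 0.67 in control-CAR macrophages. All 3 CAR libraries were above all 3 control-CAR libraries, and the log2 change was 1.88 ± 0.13 (SE; edgeR adjusted p = 1.49e-10). The low control-CAR level of Ndufaf4 was in part set by the choice of genes. Ndufs8, an iron-sulphur subunit of the complex I core, had 59.02, 58.2 and 64.6 FPKM in CAR and 25.3, 25.97 and 28.3 FPKM in control-CAR macrophages. The groups did not overlap (log2 change 0.89 ± 0.07, edgeR adjusted p = 2.96e-09). Ndufaf2, an assembly factor and paralogue of the subunit Ndufa12, had 15.96, 18.8 and 17.5 FPKM in CAR and 8.88, 8.22 and 7.46 FPKM in control-CAR macrophages, and every CAR value was above every control-CAR value. Its log2 change was 0.798 ± 0.12 (edgeR adjusted p = 1.02e-05), and that of Ndufa12 itself 0.74 ± 0.08 (edgeR adjusted p = 7.32e-08). Ndufa4 had 244, 222 and 245 FPKM in CAR and 132, 111 and 101 FPKM in control-CAR macrophages, again without overlap (log2 change 0.78 ± 0.09, edgeR adjusted p = 1.12e-07). Ndufaf6, an assembly factor for the membrane arm, was at 2.86, 4.23 and 3.03 FPKM in CAR and 1.54, 1.84 and 1.23 FPKM in control-CAR macrophages, but its call (log2 change 0.77 ± 0.27, edgeR adjusted p = 0.0143) did not hold in all 6 scalings.

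With TMM, core subunits were split. Ndufv1, which binds NADH, rose by 0.61 ± 0.07 on the log2 scale and Ndufs1, an iron-sulphur subunit beside it, by 0.404 ± 0.06, with mean FPKM of 24.96 ± 0.289 in CAR and 15.2 ± 0.533 in control-CAR macrophages. Of other complex I core subunits, Ndufs7 was called higher (0.33 ± 0.08, edgeR adjusted p = 0.00185) and Ndufv2 did not pass (0.14 ± 0.07, edgeR adjusted p = 0.0877). Ndufs3 was called lower (-0.18 ± 0.06, edgeR adjusted p = 0.0133), a call that did not hold in all 6 scalings. Atp5b, the catalytic beta subunit of ATP synthase, had 554, 552 and 566 FPKM in CAR macrophages, against 273, 268 and 267 FPKM in control-CAR macrophages. Each CAR library held about the same amount, and the log2 change was 0.75 ± 0.06 (edgeR adjusted p = 1.06e-09). Its partner Atp5a1, the alpha subunit, did not pass the test with TMM (log2 change 0.03 ± 0.06, edgeR adjusted p = 0.639). Over the 6 scalings the log2 change of Atp5a1 ran from 0.0145 to 0.574, so this null result depended on the scaling. Cox4i1 and Cox5a, nuclear subunits of complex IV, had log2 changes of -0.03 and -0.02 and did not pass, and their signs reversed with FPKM, TPM, library totals and quantile normalisation. Cox5b, another complex IV subunit, rose by 0.59 ± 0.08. Cox6a1, Cox6b1, Cox7a2, Cox8a and Uqcrc1 did not pass with TMM either, with log2 changes between -0.01 and 0.14. Over the 6 scalings their highest log2 changes lay between 0.50 for Cox6a1 and 0.67 for Cox7a2, so these genes cannot be taken as unchanged. In complex III 0 of 8 genes were called higher and 6 lower, among them Uqcrc2, a core subunit (-0.15 ± 0.06), and Uqcrfs1, the Rieske iron-sulphur protein (-0.22 ± 0.06). For Atp5c1 (-0.25 ± 0.06), Uqcrc2 and Uqcrfs1 the sign reversed with library totals, FPKM or TPM. None of the 8 complex III genes had a lower call that held in all 6 scalings.

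Cox7a2l had 132, 134 and 134 FPKM in CAR macrophages, against 366, 428 and 412 FPKM in control-CAR macrophages, a log2 change of -1.897 ± 0.07 (edgeR adjusted p = 2.89e-14). The CAR libraries lay close together and far below the control-CAR libraries. Ndufv3 fell to 93.5, 89.1 and 89.3 FPKM in CAR macrophages, against 297, 305 and 294 FPKM in control-CAR macrophages (log2 change -1.66 ± 0.08, edgeR adjusted p = 2.52e-12). Cox7a1, the muscle form of the subunit that Cox7a2 supplies elsewhere, had 1.49, 4.49 and 3.95 FPKM in CAR and 7.16, 14.6 and 9.31 FPKM in control-CAR macrophages, with wide scatter in both groups (log2 change -1.87 ± 0.42, edgeR adjusted p = 0.000528). The estimated counts of Cox7a1 were low, at 2, 6 and 5 in CAR and 8, 19 and 11 in control-CAR libraries. Cox6a2 lay beside the FPKM threshold at 0.48, 0.62 and 0.79 FPKM in CAR and 3.14, 2.71 and 2.3 FPKM in control-CAR macrophages (log2 change -2.35 ± 0.39, edgeR adjusted p = 2.11e-05). Its estimated counts in CAR libraries were 3 to 5, and its low level there was in part set by the choice of genes. Ndufc2, an accessory subunit of the membrane arm, fell by 0.93, and Atp5e, the epsilon subunit of the ATP synthase stalk, fell by 0.803, on the log2 scale. Across the 6 scalings 19 of the 22 higher calls and 8 of the 27 lower calls held, and the 8 were Cox6a2, Cox7a2l, Cox7a1, Ndufv3, Ndufc2, Atp5e, Atp5mpl and Ndufc1. Library totals, FPKM and TPM moved the median of all tested genes up, so higher calls were kept more readily. Relative to the median of all tested genes the 84 genes stood at -0.086 with TMM, -0.085 with library totals, -0.034 with FPKM, -0.020 with TPM and 0.26 after quantile normalisation, so the sign of this difference depended on the scaling.

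**Figure D2:**
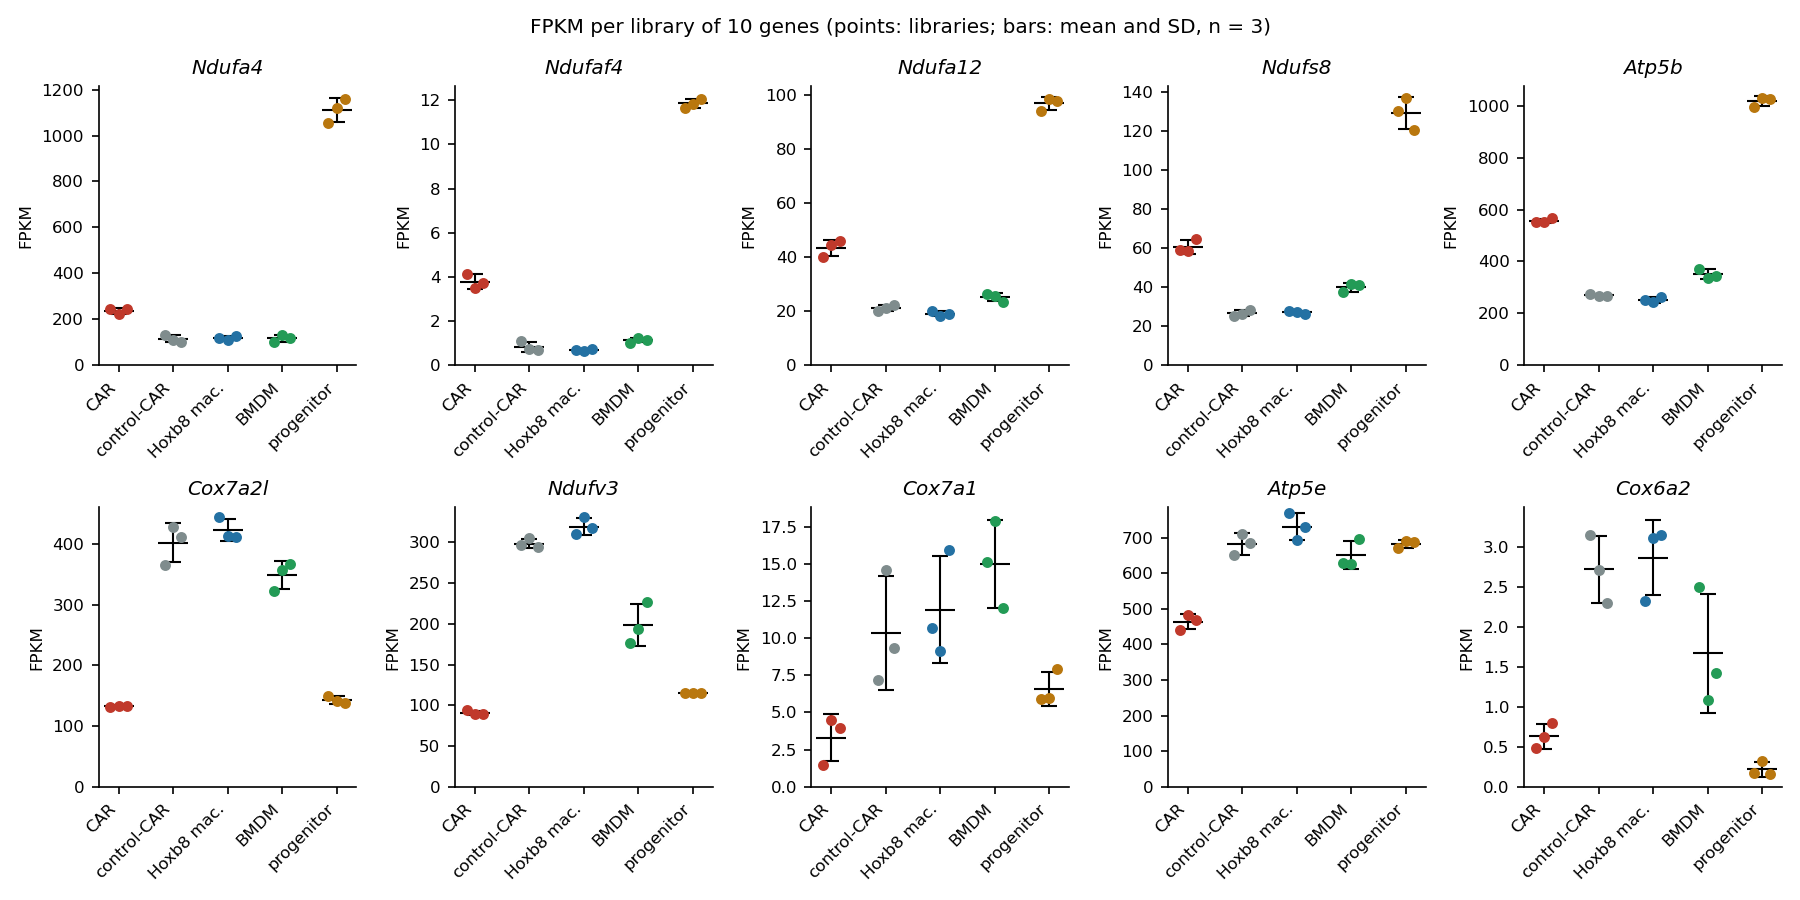
Points give FPKM (y axis, from 0) in each library of the 5 groups for 10 genes, with bars for the mean and SD (n = 3). In the upper row CAR macrophages lie between progenitors and the other macrophages, and in the lower row Cox7a2l and Ndufv3 are low in CAR macrophages and progenitors and high in the other 3 groups.

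The comparison of Hoxb8 macrophages with progenitors asks what differed between these macrophages and progenitor cells. Lower in Hoxb8 macrophages were Ndufa4, assembly factors Ndufaf4, Ndufaf2 and Ndufaf6, complex I core subunits Ndufs1 and Ndufv1, and ATP synthase subunits Atp5b and Atp5a1. Cox7a2l, Ndufv3 and Ndufa7 were higher. Of the 84 genes 34 were called higher (40.5%) and 36 lower (42.9%), close to the 44.7% and 39.6% of all tested genes. With library totals the split was 5 higher and 70 lower, and the median of all tested genes moved by -0.74. Relative to the median of all genes, the 84 genes stood at -0.081 with TMM, -0.17 with library totals, -0.31 with FPKM and -0.81 after quantile normalisation of FPKM. By complex, 14 of 38 complex I subunits were higher and 20 lower, and 6 of 17 ATP synthase genes higher and 7 lower. Without Hoxb8 macrophage replicate 2 and BMDM replicate 3, 32 of the 84 genes were higher and 40 lower. Of the 36 lower calls 35 held in all 6 scalings, but 4 of the 34 higher calls did, those of Ndufa7, Ndufv3, Cox7a2l and Cox6a2. Library totals, FPKM, TPM and quantile normalisation moved the median of all tested genes down, so lower calls were kept more readily.

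Ndufaf4 had 0.69, 0.64 and 0.73 FPKM in Hoxb8 macrophages, against 11.7, 11.8 and 12.1 FPKM in progenitors, a log2 change of -3.27 ± 0.12 (edgeR adjusted p = 6.95e-15). Its 3 values within each group were close together and the groups were far apart. The Hoxb8 macrophage values of Ndufaf4 were under the FPKM threshold, and this low level was in part set by the choice of genes. Ndufa4 stood at 117, 111 and 128 FPKM in Hoxb8 macrophages, against 1056, 1120.3 and 1157 FPKM in progenitors (log2 change -2.36 ± 0.08, edgeR adjusted p = 2.17e-15). In progenitors it had the highest mean FPKM of the 84 genes. Ndufaf2 fell by 1.76, Ndufaf6 fell by 1.58 and Ndufa12 fell by 1.51, on the log2 scale. Among assembly factors 6 of 8 were called lower and 1, Ndufaf3, higher, with a median log2 change of -0.77. The log2 change of Ndufaf3 (0.66 ± 0.12) ran from -0.454 to 0.659 over the 6 scalings.

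The complex I core subunits Ndufs1 and Ndufv1 fell, with log2 changes of -1.02 ± 0.06 for Ndufs1 and -0.96 ± 0.06 for Ndufv1. In complex III the core subunits Uqcrc1 (-0.84 ± 0.08) and Uqcrc2 (-0.65 ± 0.06) fell, and Uqcrfs1 (-0.03 ± 0.06) did not pass the test. Atp5b had 249.6, 243 and 264 FPKM in Hoxb8 macrophages, against 997, 1031 and 1028 FPKM in progenitors (log2 change -1.18 ± 0.06, edgeR adjusted p = 5.83e-13). Atp5a1 fell by 0.84 on the log2 scale, whereas Atp5c1, the gamma subunit that turns inside the catalytic head, did not pass (0.11 ± 0.06). With TMM, 11 of 13 complex IV genes were called higher and 1 lower, with a median log2 change of 0.38, and 2 of 8 complex III genes were called higher and 2 lower. The complex IV count includes Cox7a2l and leaves out Ndufa4, which fell. Of these complex IV genes, Cox4i1 (0.38 ± 0.07), Cox8a (0.62 ± 0.07), Cox6b1 (0.36 ± 0.08), Cox6a1 (0.24 ± 0.05) and Cox7a2 (0.38 ± 0.10) were lower in Hoxb8 macrophages with library totals, FPKM and TPM.

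Cox7a2l stood at 445, 413 and 412 FPKM in Hoxb8 macrophages, against 149, 141 and 137 FPKM in progenitors (log2 change 2.41 ± 0.07, edgeR adjusted p = 2.79e-16). Ndufv3 had 309.6, 331 and 317 FPKM in Hoxb8 macrophages and 114, 115 and 115 FPKM in progenitors (log2 change 1.92 ± 0.08, edgeR adjusted p = 7.28e-14). Neither gene overlapped between the groups. Ndufa7, an accessory subunit of the peripheral arm of complex I, was at 218, 239.9 and 222 FPKM in Hoxb8 macrophages, against 165, 169 and 171 FPKM in progenitors, and was the only one of the 38 complex I subunits other than Ndufv3 with a higher call in all 6 scalings (log2 change 1.298 ± 0.09, edgeR adjusted p = 7.11e-11). Cox6a2 had 2.32, 3.11 and 3.15 FPKM in Hoxb8 macrophages, against 0.17, 0.32 and 0.16 FPKM in progenitors, values near the threshold (log2 change 4.41 ± 0.46, edgeR adjusted p = 3.96e-08). Its estimated counts in progenitor libraries were 1 or 2, and its low level there was in part set by the choice of genes. Cox7a1 had 10.7, 9.11 and 15.97 FPKM in Hoxb8 macrophages and 5.88, 6 and 7.9 FPKM in progenitors, and its call (log2 change 1.71 ± 0.35, edgeR adjusted p = 0.000164) did not hold in every scaling. Its estimated counts were 13, 15 and 19 in Hoxb8 macrophage and 7, 8 and 10 in progenitor libraries.

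**Figure D3:**
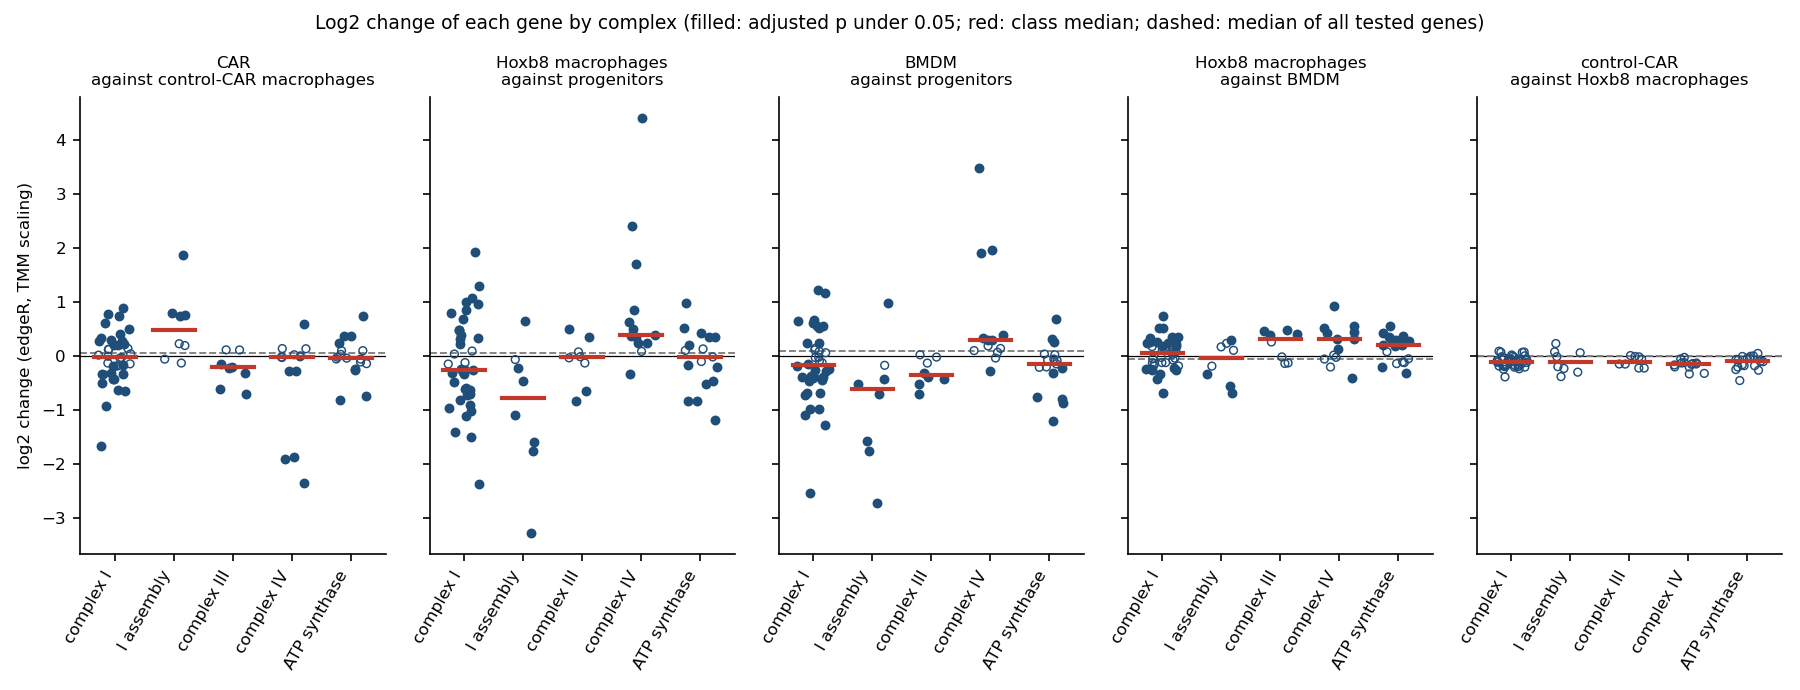
Each panel is 1 comparison; each point is the log2 change (y axis, edgeR with TMM) of 1 gene, placed by complex, filled where the adjusted p is under 0.05, with the class median in red and the median of all tested genes dashed. Assembly factors have a median of 0.48 in CAR against control-CAR macrophages and -0.77 in Hoxb8 macrophages against progenitors, and no point is filled in control-CAR against Hoxb8 macrophages.

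In BMDM, Ndufaf4, Ndufa4, Ndufa12 and the core subunits Atp5b, Atp5a1, Uqcrc1 and Ndufs1 were lower than in progenitors, and Cox7a2l, Cox7a1, Ndufv3 and Ndufa7 were higher. The progenitor libraries are the same as in the preceding comparison, so the values of both are given side by side only. Of the 84 genes 21 were called higher (25%) and 38 lower (45.2%), where 46.6% of all tested genes were called higher and 40.7% lower. Complex I subunits had 10 of 38 higher and 20 lower, complex III 0 of 8 higher and 5 lower, complex IV 7 of 13 higher and 1 lower, and ATP synthase 3 of 17 higher and 6 lower. Without Hoxb8 macrophage replicate 2 and BMDM replicate 3 the totals were 19 higher and 43 lower. All 38 lower calls held in the 6 scalings. Library totals, FPKM, TPM and quantile normalisation moved the median of all tested genes down, so a lower call could hardly be lost there. With library totals the split was 6 higher and 71 lower, with the median of all genes moved by -0.64. Ndufaf4 was at 1.02, 1.22 and 1.16 FPKM in BMDM, against 11.7, 11.8 and 12.1 FPKM in progenitors (log2 change -2.72 ± 0.11, edgeR adjusted p = 2.61e-14). For Ndufa4 the values were 102, 130.0 and 117 FPKM in BMDM, against 1056, 1120.3 and 1157 FPKM in progenitors (log2 change -2.54 ± 0.08, edgeR adjusted p = 7.51e-16). Both genes were again far below progenitors in every library. Ndufaf6 fell by 1.75, Ndufaf2 fell by 1.57 and Ndufa12 fell by 1.27 on the log2 scale, and the assembly factors as a class had 6 of 8 lower and 1 higher.

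Among core subunits Atp5b (-0.86 ± 0.06), Atp5a1 (-0.79 ± 0.06), Uqcrc1 (-0.704 ± 0.07), Ndufs1 (-0.69 ± 0.06), Uqcrc2 (-0.52 ± 0.06) and Ndufv1 (-0.28 ± 0.06) fell in BMDM, and Uqcrfs1 (-0.02 ± 0.06) and Atp5c1 (0.02 ± 0.06) did not pass. Neither did Cox5a (0.14 ± 0.07), a nuclear subunit of complex IV. Cox7a2l had 323, 357 and 367 FPKM in BMDM, against 149, 141 and 137 FPKM in progenitors (log2 change 1.97 ± 0.07, edgeR adjusted p = 5.05e-15), and no BMDM library came near the progenitor values. Cox7a1 was at 15.1, 17.9 and 12.01 FPKM in BMDM and 5.88, 6 and 7.9 FPKM in progenitors, and Ndufv3 at 176, 193 and 227 FPKM in BMDM and 114, 115 and 115 FPKM in progenitors. Their log2 changes were 1.91 ± 0.32 (edgeR adjusted p = 2.18e-05) and 1.18 ± 0.08 (edgeR adjusted p = 1.47e-10). With Ndufa7 (1.23 ± 0.09), these were the 4 higher calls that held in all 6 scalings. The estimated counts of Cox7a1 were low, at 22, 23 and 20 in BMDM and 7, 8 and 10 in progenitor libraries. Cox6a2 had 2.5, 1.08 and 1.42 FPKM in BMDM, against 0.17, 0.32 and 0.16 FPKM in progenitors, with the BMDM libraries far apart (log2 change 3.48 ± 0.52, edgeR adjusted p = 4.47e-06). Its low level in progenitors was again in part set by the choice of genes. Cox4i1 (0.398 ± 0.07), Cox6b1 (0.34 ± 0.08) and Cox8a (0.297 ± 0.07) were called higher with TMM and were lower with library totals, FPKM and TPM.

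Of the untreated macrophages, Hoxb8 macrophages had more Ndufv3, Cox7c, Cox7b, Ndufc2 and Uqcrh than BMDM and less Ndufv1, Ndufs8, Ndufs1 and Atp5b. Over the 84 genes 36 were called higher (42.9%) and 14 lower (16.7%) in Hoxb8 macrophages against BMDM, where 32.0% of all tested genes were called higher and 38.3% lower. The median log2 change of the 84 genes was 0.12, against -0.048 over all genes. The difference between these medians stayed positive with library totals (0.16), FPKM (0.12) and TPM (0.11) and was 0.0016 after quantile normalisation. With library totals the calls were 14 higher and 30 lower, with all genes moved by -0.17. Without Hoxb8 macrophage replicate 2 and BMDM replicate 3 they were 33 higher and 15 lower. ATP synthase had 10 of 17 higher and 2 lower, complex IV 8 of 13 higher and 1 lower, complex III 4 of 8 higher and 0 lower, complex I 13 of 38 higher and 8 lower, and the assembly factors 1 of 8 higher and 3 lower. Of the 36 higher calls 5 held in all 6 scalings (Ndufv3, Cox7c, Cox7b, Ndufc2 and Uqcrh), and 12 of the 14 lower calls did.

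Ndufv3 had 309.6, 331 and 317 FPKM in Hoxb8 macrophages, against 176, 193 and 227 FPKM in BMDM, without overlap (log2 change 0.74 ± 0.08, edgeR adjusted p = 1.51e-07). Cox7c, a small complex IV subunit, was at 576, 614 and 614 FPKM in Hoxb8 macrophages and 391, 448 and 516 FPKM in BMDM, also without overlap (log2 change 0.56 ± 0.10, edgeR adjusted p = 7.84e-05), and Cox7b had a log2 change of 0.53 ± 0.08. Atp5k, the e subunit of ATP synthase, had 0.56 ± 0.16 and Cox6a2 0.92 ± 0.30, and neither call held in all 6 scalings. Core and assembly genes of complex I were among the 12 lower ones. Ndufv1 was at 23.8, 25.2 and 23.02 FPKM in Hoxb8 macrophages, against 42.8, 42.2 and 43.9 FPKM in BMDM, with every Hoxb8 value below every BMDM value (log2 change -0.67 ± 0.07, edgeR adjusted p = 4.03e-08). Ndufaf7, an assembly factor with methyltransferase activity, had 3.28, 3 and 2.81 FPKM in Hoxb8 macrophages and 5.3, 5.37 and 4.99 FPKM in BMDM (log2 change -0.68 ± 0.11, edgeR adjusted p = 2.87e-05). Ndufs8 (-0.42 ± 0.08), Cox5b (-0.405 ± 0.08), Ndufs1 (-0.33 ± 0.06) and Atp5b (-0.32 ± 0.06) also fell. For Ndufaf4 (-0.55 ± 0.16) the sign reversed after quantile normalisation. Cox7a2l (0.44 ± 0.07), Cox7a2 (0.42 ± 0.10), Cox8a (0.33 ± 0.07) and Cox6a1 (0.14 ± 0.05) were called higher with TMM, and the signs of Cox6a1 and Cox8a reversed with TPM. Uqcrc1, Uqcrc2, Uqcrfs1, Cox4i1, Cox5a, Cox6b1, Atp5a1, Atp5c1, Ndufa4 and Cox7a1 did not pass the test.

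Control-CAR macrophages were set against Hoxb8 macrophages to see what the control construct went with. With edgeR, 0 of the 84 genes were called higher and 0 lower, where 0.721% of all tested genes were called higher and 1.90% lower. At an unadjusted p under 0.05 there were 20 of 84, beside 2128 of 11793 over all genes, and DESeq2 called 0 higher and 1 lower. The largest differences were those of Atp5k (log2 change -0.45 ± 0.16, edgeR adjusted p = 0.142), at 391, 385 and 398 FPKM in control-CAR and 432, 477 and 436 FPKM in Hoxb8 macrophages, and Ndufa6 (-0.39 ± 0.12, edgeR adjusted p = 0.108). Ndufaf4 stood at 1.09, 0.75 and 0.67 FPKM in control-CAR and 0.69, 0.64 and 0.73 FPKM in Hoxb8 macrophages, which overlap. The log2 change of Cox7a2l was -0.13 ± 0.07, of Ndufv3 -0.19 ± 0.08, of Ndufa4 -0.16 ± 0.09 and of Atp5b 0.05 ± 0.06, none past the threshold.

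A ratio of 2 genes within a library does not depend on a factor applied to the whole library, though an FPKM ratio carries the transcript lengths and quantile normalisation would alter it. The FPKM ratio of Cox7a2l to Cox7a2 was 0.707, 0.715 and 0.631 in CAR, 2.43, 2.99 and 2.94 in control-CAR, 2.81, 2.74 and 3.75 in Hoxb8 macrophage, 2.81, 3.02 and 3.14 in BMDM and 0.785, 0.759 and 0.677 in progenitor libraries. CAR macrophages and progenitors thus had less Cox7a2l than Cox7a2 and the other 3 groups more. The ratio of Ndufa4 to Cox4i1 averaged 0.347 ± 0.0202 in CAR, 0.203 ± 0.0382 in control-CAR, 0.198 ± 0.0175 in Hoxb8 macrophage, 0.171 ± 0.0194 in BMDM and 1.33 ± 0.0488 in progenitor libraries (SD, n = 3 each), so that progenitors alone had more Ndufa4 than Cox4i1. The 3 groups other than CAR macrophages and progenitors overlapped in this ratio. Ndufv3 over Ndufv1 averaged 1.85 ± 0.102 in CAR, 11.5 ± 0.611 in control-CAR, 13.3 ± 0.416 in Hoxb8 macrophage, 4.62 ± 0.525 in BMDM and 1.38 ± 0.0724 in progenitor libraries. No 2 groups overlapped in it. The ratio of Atp5e to Atp5b was 0.833 ± 0.0392 in CAR, 2.53 ± 0.137 in control-CAR, 2.904 ± 0.158 in Hoxb8 macrophage, 1.86 ± 0.171 in BMDM and 0.671 ± 0.00194 in progenitor libraries, and it too did not overlap between any 2 groups. Exact permutation of 3 against 3 libraries cannot go below a two-sided p of 0.10, so these ratios are given as values.

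**Figure D4:**
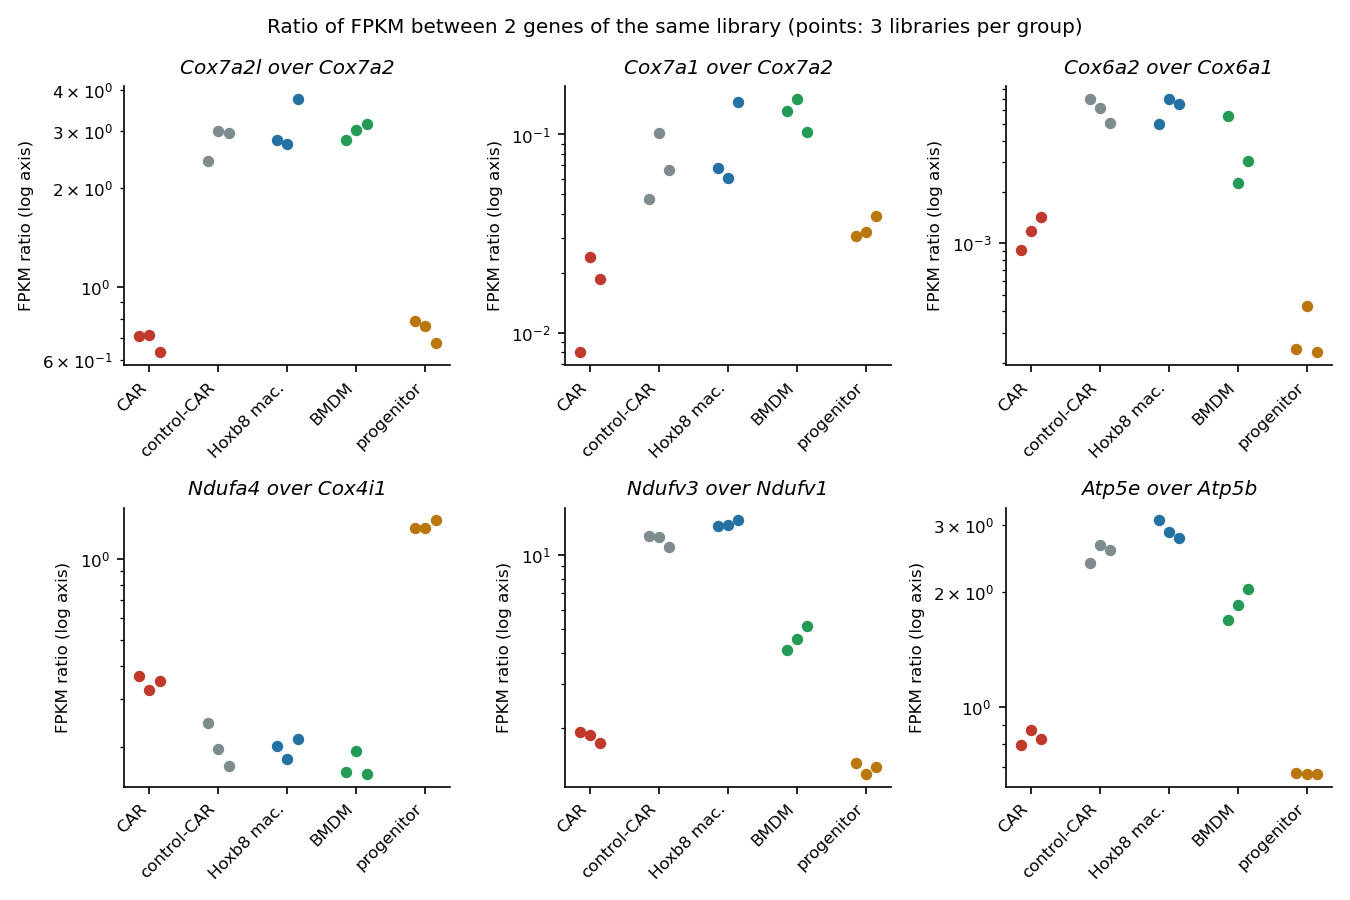
Points give the ratio of the FPKM of 2 genes in the same library (y axis, log scale), for 3 libraries in each of the 5 groups. The ratios of Cox7a2l, Ndufv3 and Atp5e to their partners are low in CAR macrophages and progenitors and high in the other groups, and the ratio of Ndufa4 to Cox4i1 is above 1 in progenitors.

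Isoform genes of complex IV were unequal in all groups. Cox6a1, the widely expressed form, had a mean FPKM of 537 ± 17.3 in CAR, 447 ± 8.75 in control-CAR and 708 ± 29.01 in progenitor libraries, and the ratio of Cox6a2 to it was at most 0.00703 in any library. Cox7a1 reached 0.151 of the level of Cox7a2 at most, in a BMDM library, and 0.008 at least, in a CAR library. These ratios rest on few reads, with 23 estimated counts of Cox7a1 in that BMDM library and 2 in that CAR library. The length that FPKM divides by had a median of 72.1 bases for Cox7a1 and 442 for Cox7a2, which raises the FPKM of Cox7a1 relative to its counts. Of the 3 genes that encode the same mature c subunit of ATP synthase, Atp5g3 made up 54.8 ± 1.23% of their summed FPKM in CAR and 49.9 ± 1.61% in control-CAR libraries. Atp5g1 made up 15.5 ± 1.07% in Hoxb8 macrophage, 13.1 ± 1.42% in BMDM and 20.7 ± 0.527% in progenitor libraries, while Atp5g2 made up 43.9 ± 3.23% in BMDM and 29.7 ± 0.827% in progenitor libraries. The genes of the c subunit, and Ndufb4 and its copy Ndufb4c, are alike in sequence, so the split of reads between them is uncertain. The ratio of Ndufb4c to Ndufb4 ranged from 0.877 to 1.99 among the CAR libraries alone.

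The length that FPKM divides by, called the implied length here, can be worked out from count, FPKM and library total. It cannot be read as the full length of a transcript, since the shortest among the 84 genes was 40.5 bases. Its median was 382 bases for the 84 genes, against 2470 for all tested genes. Most of these genes thus had a short implied length, and their values are sensitive to it. The implied length of Ndufv3 was 322, 309.5 and 304 bases in CAR, 234, 245 and 243 in control-CAR, 246, 265 and 238.95 in Hoxb8 macrophage, 267, 261 and 279 in BMDM and 331, 322 and 328 in progenitor libraries. It was longer in all CAR and progenitor libraries than in all others, and Ndufv3 differed most in this length among the 84 genes, by 30.7% of its median between group means. GENCODE lists protein-coding transcripts of 493, 645 and 1582 bases for Ndufv3, and the long and short forms are known to include and skip a large exon. These are full lengths, and every implied value of Ndufv3 was below the shortest of them, so the 2 kinds of length cannot be matched directly. The implied length is an average over the transcript mix that the authors' counting assigned, and the FPKM ratio of Ndufv3 to Ndufv1 carries its difference. After rescaling counts to 1 length per gene, 21 genes were called higher and 32 lower in CAR against control-CAR macrophages. The median implied length of the genes called lower in Hoxb8 macrophages against progenitors was 612 bases and of those called higher 252 bases. Across the 84 genes Spearman's rho between length and log2 change was -0.42 in that comparison, against -0.011 over all 11793 genes, 0.29 against -0.032 for CAR against control-CAR macrophages, and 0.48 against 0.17 for control-CAR against Hoxb8 macrophages, where 0 of the 84 genes were called. These are correlations across genes, which are not independent. In Hoxb8 macrophage replicate 2 and BMDM replicate 3, the lengths of the 84 genes were longer by a median of 24.9 and 21.4 bases than their median over libraries, where the other libraries lay between -8.5 and 6.8. After rescaling counts to 1 length per gene, rho across the 84 genes was -0.398 for Hoxb8 macrophages against progenitors, 0.34 for CAR against control-CAR macrophages and 0.19 for control-CAR against Hoxb8 macrophages.

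**Figure D5:**
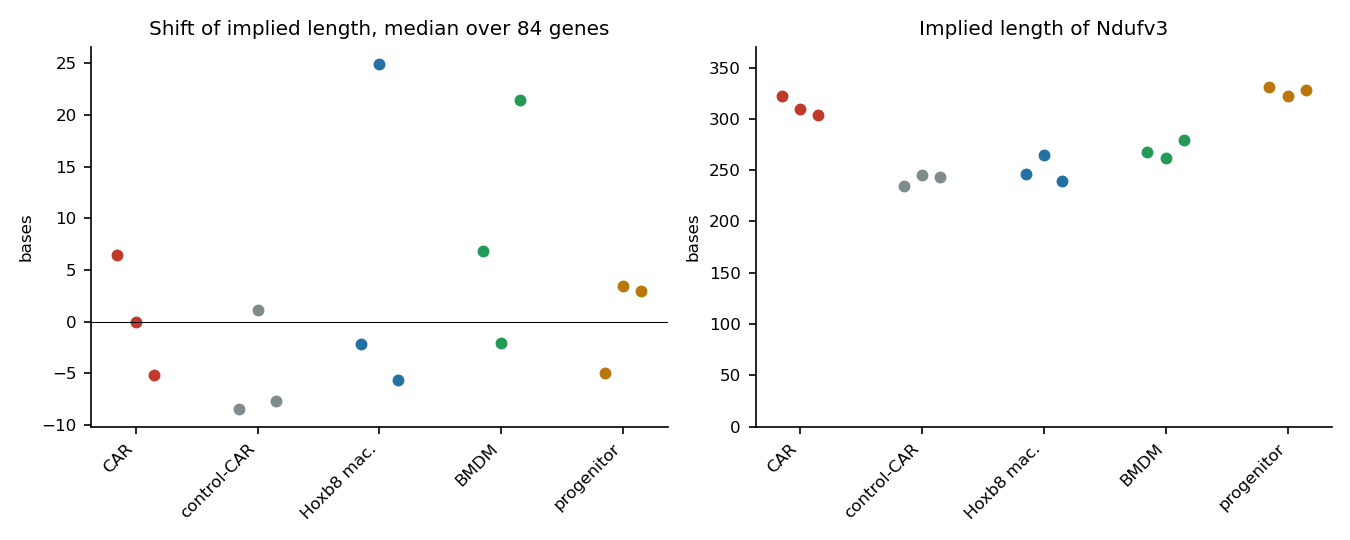
The left panel gives, for each library, the median shift in bases of the implied length of the 84 genes from each gene's median over libraries, and the right panel the implied length of Ndufv3. On the left Hoxb8 macrophage replicate 2 and BMDM replicate 3 stand above the others at 24.9 and 21.4 bases, and on the right CAR and progenitor libraries are at 304 bases or more and all others at 279 or less.

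Other mitochondrial genes were read from lists chosen with earlier results of these data known, and their counts below are with TMM and stand beside the shares of all tested genes. In CAR against control-CAR macrophages, where 41.9% of all tested genes were called higher and 36.8% lower, 11 of 14 genes of mitochondrial import and content were called higher and 2 lower (median log2 change 0.46). With library totals 12 of the 14 were called higher and 2 lower. Hspd1, the matrix chaperonin, had 267 ± 0.136 FPKM in CAR and 54.8 ± 5.92 FPKM in control-CAR macrophages (log2 change 1.97 ± 0.06, edgeR adjusted p = 2.61e-15), and Tomm40, the import pore, had a log2 change of 1.31 ± 0.09. Of complex II, cytochrome c and Cyc1, 2 of 6 were called higher and 2 lower. Cycs, cytochrome c itself, had 58.6 ± 0.625 FPKM in CAR and 23.8 ± 1.42 FPKM in control-CAR macrophages (0.997 ± 0.06), and Cyc1, the cytochrome of complex III, 82.7 ± 0.378 FPKM in CAR and 41.7 ± 0.993 FPKM in control-CAR macrophages (0.68 ± 0.07). Among assembly factors outside the set 11 of 37 were called higher and 7 lower (22 and 6 with library totals), led by Sco2, a copper chaperone of complex IV, at 19.8 ± 1.46 FPKM in CAR and 3.16 ± 0.388 FPKM in control-CAR macrophages (2.34 ± 0.15), and Cox10, of haem A synthesis (1.02 ± 0.13). Of 12 tested regulators of mitochondrial biogenesis 5 were called higher and 4 lower, and with library totals 7 and 1. Pprc1, a coactivator of NRF1 targets, had 12.8 ± 0.312 FPKM in CAR and 3.3 ± 0.191 FPKM in control-CAR macrophages (1.64 ± 0.08), and Yy1 had a log2 change of -0.700 ± 0.05.

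In Hoxb8 macrophages against progenitors, where 44.7% of all tested genes were called higher and 39.6% lower, 1 of the 12 biogenesis regulators was called higher and 9 lower. In BMDM against progenitors, with 46.6% of all tested genes higher and 40.7% lower, the counts were 1 higher and 11 lower. Myc was at 15.8 ± 1.26 FPKM in Hoxb8 macrophages and 187 ± 6.32 FPKM in progenitors (-2.73 ± 0.06), Pprc1 at 2.37 ± 0.246 FPKM in Hoxb8 macrophages and 27.3 ± 0.5305 FPKM in progenitors (-2.69 ± 0.08), and Ppargc1b, another coactivator, had a log2 change of -3.401 ± 0.12 in BMDM against progenitors. The import and content list had 2 of 14 higher and 12 lower in Hoxb8 macrophages, and 1 higher and 10 lower in BMDM, against progenitors. Hspd1 stood at 51.7 ± 3.89 FPKM in Hoxb8 macrophages and 423 ± 15.8 FPKM in progenitors (-2.19 ± 0.06), and the BMDM change of Phb, prohibitin, was -1.88 ± 0.07. Sdha, the flavoprotein of complex II, and Cycs fell in both, with log2 changes of -0.88 ± 0.06 and -0.696 ± 0.06 in Hoxb8 macrophages and -0.67 ± 0.06 and -1.09 ± 0.06 in BMDM. Assembly factors outside the set had 13 of 37 higher and 18 lower in Hoxb8 macrophages, where Cox17, a copper chaperone, was at 629 ± 38.1 FPKM, against 229 ± 11.1 FPKM in progenitors (2.36 ± 0.13), and Cox10 fell (-2.22 ± 0.12). With library totals 30 of the 37 were called lower in BMDM, and with TMM they had 9 higher and 18 lower, with Nubpl at 1.89 ± 0.15 and Ecsit at -1.83 ± 0.11, both complex I assembly genes.

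The list of 11 hypoxia-response genes holds targets of the oxygen-regulated factor HIF. In CAR against control-CAR macrophages 0 of 11 were called higher and 11 lower with TMM, beside 41.9% of all tested genes higher and 36.8% lower, with a median log2 change of -1.77. With library totals 0 were called higher and 10 lower, and Lonp1, a matrix protease on the list, was at 60.7 ± 0.913 FPKM in CAR and 59.9 ± 5.2 FPKM in control-CAR macrophages. Egln3, an oxygen-sensing prolyl hydroxylase, had 67.2 ± 1.55 FPKM in CAR and 709 ± 23.2 FPKM in control-CAR macrophages (-3.71 ± 0.08), and Ankrd37 had a log2 change of -3.897 ± 0.17. In Hoxb8 macrophages against progenitors 11 of 11 were called higher with TMM (median 4.53), beside 44.7% of all tested genes, and with library totals 9 were called higher and 1 lower. Car9, a carbonic anhydrase, had 5.04 ± 0.0551 FPKM in Hoxb8 macrophages and 7.48 ± 0.437 FPKM in progenitors, and Lonp1 had 74.1 ± 5.33 FPKM in Hoxb8 macrophages and 73.8 ± 3.41 FPKM in progenitors. The level of Vegfa, a vascular growth factor, was 462 ± 26.2 FPKM in Hoxb8 macrophages and 2.05 ± 0.218 FPKM in progenitors. Adm was listed at 0 in progenitors and at 4.21 ± 0.861 FPKM in Hoxb8 macrophages. In BMDM against progenitors 9 were called higher and 1 lower (8 and 2 with library totals), beside 46.6% and 40.7% of all tested genes, with Vegfa at 114 ± 20.3 FPKM in BMDM and Adm at 8.22 ± 0.669 FPKM in BMDM. In Hoxb8 macrophages against BMDM, with 32.0% of all tested genes called higher and 38.3% lower, 10 of 11 were higher and 1 lower, Vegfa by 2.17 ± 0.10 and Egln3 by 1.79 ± 0.07. There, 6 of 12 biogenesis regulators were higher and 4 lower (Ppargc1b 0.93 ± 0.16, Yy1 0.59 ± 0.05), 7 of 14 import and content genes higher and 6 lower (Vdac1, the outer membrane channel, 1.14 ± 0.05; Hspe1 0.51 ± 0.07), 10 of 37 outside assembly factors higher and 12 lower (Cox17 1.08 ± 0.12, Ecsit 1.04 ± 0.12), and 2 of 6 of complex II and cytochrome c genes higher and 2 lower (Cycs 0.39 ± 0.06, Sdhb -0.32 ± 0.07). In control-CAR against Hoxb8 macrophages, with 0.721% of all tested genes called higher and 1.90% lower, 0 of 14 import and content genes were higher and 2 lower, Vdac1 (-0.34 ± 0.05) and Hspe1 (-0.46 ± 0.08). There 0 of 11 hypoxia-response genes were higher and 3 lower, Adm (-0.93 ± 0.20) and Higd1a (-0.39 ± 0.08) among them, and 1 of 12 biogenesis regulators was higher, Pprc1 (0.44 ± 0.09), and 0 lower. Of the other 2 lists 0 genes were called. The part of any of these lists in the levels of the 84 genes was not tested.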

How the data were processed

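Polyadenylated RNA of 15 mouse libraries was read from 1 table of 17030 genes. The submitters' processing notes name HISAT2, Bowtie2, RSEM 1.3.1, DESeq2 1.4.5 and the build GRCm38.p6. Which step each tool did, and how strand was handled, is not given in the sources used. The deposited estimated counts are named read counts in the file headers. Their totals differ between libraries, and 94.4% to 96.0% of the values per library were whole. The deposited FPKM and TPM are the authors' values per library, per the file headers. The 15 columns of averages made by the authors were not used.

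The members and lists were chosen with earlier results of these data known. Genes at an FPKM of 1 in at least 3 libraries (11793) were tested. Estimated counts were rounded, and all 15 libraries entered 1 edgeR quasi-likelihood fit with TMM and Benjamini-Hochberg adjustment over all tested genes, with calls at an adjusted p under 0.05. The SE given with an edgeR log2 change was not estimated by the fit. It is the absolute log2 change divided by the square root of the quasi-likelihood F statistic. The script was tested on simulated data. Alternatives with limma used log2(FPKM + 1), log2(FPKM + 0.1) or log2(TPM + 1), a scale that understates changes of low genes. Named genes were, per comparison, the 5 largest called rises and falls, a list of core subunits, Cox4i1, Cox5a and isoform pairs, genes beside the FPKM threshold and the 2 largest called changes of each other list. Single values of 1 gene are not reported here. Members named besides these were chosen after their values were seen. Replicate libraries differed by more than counting noise (chi-square per degree of freedom 1.40 to 21.3). Promoter windows and gene coordinates are RefSeq's on GRCm38.p6, with coordinates for all 84 genes and windows for 70. Tools were edgeR 4.0.16 and limma 3.58.1 with DESeq2 1.42.0 in R 4.3.3, and Python 3.11.15, with figures from matplotlib 3.10.9.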

Additional observations from a re-analysis of the deposited data

How the results depend on the processing

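Scaling moved the counts of calls most among the alternatives run. With limma on log2(FPKM + 1), the calls were 52 higher and 12 lower for CAR against control-CAR macrophages, 6 and 70 for Hoxb8 macrophages against progenitors, 6 and 72 for BMDM against progenitors, and 22 and 31 for Hoxb8 macrophages against BMDM. A pseudocount of 0.1 gave the same counts except for 20 in place of 22. With TPM they were 69 and 8, 4 and 76, 5 and 77, and 7 and 45 in the same order of comparisons, with library totals 53 and 11, 5 and 70, 6 and 71, and 14 and 30, and after quantile normalisation 42 and 15, 10 and 70, 7 and 73, and 34 and 24. DESeq2 called 0 and 1 for control-CAR against Hoxb8 macrophages, and its other counts, like those without the FPKM filter, with filterByExpr, with only the groups compared and with counts rescaled to 1 length (chosen after seeing the data), stayed within 1.5 times. Leaving out 1 library at a time gave 19 to 23 higher and 24 to 28 lower for CAR against control-CAR, 31 to 36 and 33 to 39 for Hoxb8 macrophages against progenitors, 17 to 25 and 37 to 43 for BMDM against progenitors, 28 to 38 and 12 to 18 for Hoxb8 macrophages against BMDM, and 0 and 0 to 1 for control-CAR against Hoxb8 macrophages. Without Hoxb8 macrophage replicate 2 and BMDM replicate 3, a choice made after seeing the data, the counts were 32 and 40 for Hoxb8 macrophages against progenitors, 19 and 43 for BMDM against progenitors, and 33 and 15 for Hoxb8 macrophages against BMDM.

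Same-numbered libraries showed no sign of deviating together (correlations of -0.144 to 0.031). With 3 libraries a group this cannot establish whether the numbers pair them, and the labels do not say. A replicate block gave 22 higher and 29 lower, 34 and 35, 22 and 38, 36 and 15, and 0 and 0 in the 5 comparisons. Of the results for single named genes under the alternatives, 1884 kept their direction and side of the threshold, 78 passed where they had not, 22 no longer passed and 102 changed sign. The cause was not tested beyond the scaling itself. Sign changes were as follows, with FPKM values the same at both pseudocounts unless 2 are given. In CAR against control-CAR macrophages, with FPKM, TPM, library totals and quantile normalisation in this order, the log2 change was 0.27, 0.51, 0.29, 0.38 for Cox4i1, 0.27, 0.51, 0.29, 0.21 for Cox5a, 0.26 or 0.27, 0.504, 0.298, 0.399 for Cox6a1. There Atp5c1 had 0.0528 or 0.0531 with FPKM and 0.29 with TPM and 0.0638 with library totals. There Uqcrc2 had 0.15 with FPKM and 0.39 with TPM and 0.16 with library totals. There Uqcrfs1 had 0.0747 or 0.0758 with FPKM and 0.31 with TPM and 0.0858 with library totals. In Hoxb8 macrophages against progenitors, with FPKM, TPM, library totals and quantile normalisation in this order, the log2 change was -0.73, -1.03, -0.72, -0.804 for Atp5c1, -0.47, -0.77, -0.45, -0.82 for Cox4i1, -0.76, -1.06, -0.74, -0.97 for Cox5a, -0.61, -0.91, -0.59, -1.05 for Cox6a1, -0.52, -0.81, -0.47, -0.97 for Cox6b1, -0.48, -0.78, -0.45, -0.49 for Cox7a2, -0.24, -0.54, -0.21, -0.62 for Cox8a. In BMDM against progenitors, with FPKM, TPM, library totals and quantile normalisation in this order, the log2 change was -0.65, -0.77, -0.64, -0.75 for Atp5c1, -0.295 or -0.296, -0.42, -0.26, -0.64 for Cox4i1, -0.55, -0.67, -0.52, -0.87 for Cox5a, -0.603 or -0.604, -0.73, -0.56, -0.95 for Cox6a1, -0.39, -0.51, -0.32, -0.79 for Cox6b1, -0.41, -0.54, -0.36, -0.78 for Cox8a. In Hoxb8 macrophages against BMDM, with FPKM, TPM, library totals and quantile normalisation in this order, the log2 change was -0.0091, -0.18, -0.0284, -0.0957 for Cox6a1. There Atp5c1 had -0.26 with TPM. There Cox6b1 had -0.304 with TPM and -0.18 with quantile normalisation. There Cox8a had -0.0009 with TPM. There Ndufaf4 had 0.32 with quantile normalisation.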
